A study of Mus musculus with 8 samples.

Results

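Endothelial cells line blood and lymphatic vessels, and 10 genes that mark or signal to them were followed in small intestinal adenomas of ApcMin/+ mice with and without 14-3-3σ. The members were the rows of the deposited sheet of normalised read counts whose symbol was on a list of 5 lymphatic genes (Lyve1, Prox1, Pdpn, Flt4 and Vegfc) and 5 blood vessel genes (Kdr, Tek, Pecam1, Cdh5 and Vwf). All 10 were found among 48440 rows, and all 10 passed the filter on low values (4 or more libraries with a value of 10 or more). The knockout adenomas, called ApcMin/+/14-3-3σ-/- in the labels, came from 4 mice aged 144 to 148 days. They carry the ApcMin allele, a truncating mutation of the tumour suppressor gene Apc, and lack both copies of Sfn, the gene of 14-3-3σ. The ApcMin/+ adenomas came from 4 mice, heterozygous for the same allele, aged 256 to 282 days with Sfn intact. All mice were on a C57BL/6 background and carried the Apc mutation. The knockout mice were all younger than the ApcMin/+ mice, so effects of genotype and of age cannot be told apart. The sources used here give neither how the deletion was made nor how many adenomas went into a library.

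Lymphatic endothelium arises from veins under the transcription factor Prox1. It is kept growing by VEGF-C, which binds VEGFR3, the receptor encoded by Flt4, and it displays the hyaluronan receptor LYVE1 and the mucin-like protein podoplanin. Blood endothelium responds mainly to VEGF-A through VEGFR2, encoded by Kdr, and to angiopoietins through TIE2, encoded by Tek. Its cells hold together through VE-cadherin (Cdh5) and PECAM-1 (Pecam1) and store von Willebrand factor (Vwf). Several of these genes are also active elsewhere: Prox1 in enteroendocrine cells and intestinal tumour cells, Pdpn in fibroblasts, Lyve1 in some tissue macrophages and Vwf in megakaryocytes. Libraries were made from adenoma tissue, so more cells of a type and more RNA per cell cannot be told apart.

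Sfn was at 0 or 1 in the knockout libraries and between 6585 and 15968 in the ApcMin/+ libraries (log2 difference -12.81, two-sided exact permutation p = 0.0286, the smallest for 4 against 4). Column names of the sheet begin with a prefix, which was read here as a sequencing order. ApcMin/+ replicates 3 and 4 carry a different prefix from all other libraries. In the sequencing order shared by both genotypes, which leaves out ApcMin/+ replicates 3 and 4, the difference was -12.76 (exact permutation p = 0.0667, the smallest possible there). Library sums of normalised read counts ranged from 34182800 to 46707800, and depth before normalisation is unknown. Summed epithelial markers, Epcam and Krt8 among 10, were between 515639 and 630367 in knockout libraries and between 464302 and 868039 in ApcMin/+ libraries. Of these 10 genes, 3 lay above 0 and 7 below, with a median log2 fold change of -0.16, and 0 passed limma at an adjusted p or at an unadjusted p of 0.05. The RNA of the inactive X chromosome, Xist, was above 1000 in 1 knockout library and in ApcMin/+ replicates 2 and 3. The Y chromosome gene Ddx3y was at 0 to 2 in these libraries and between 1435 and 2132 in the other libraries. By both genes, libraries with high Xist read as female and the others as male. The mix of sexes thus differed between genotypes. The knockout library with high Xist is named for a mouse listed in the labels as ApcMin/+. It is called the unnumbered knockout library and stands first wherever the 4 knockout values are listed, followed by knockout replicates 2, 3 and 4.

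All 10 members had a higher fitted level in the knockout adenomas, and Lyve1 alone passed the test across all genes. Fold changes are differences of log2(value + 1), knockout minus ApcMin/+, from limma, with p adjusted by Benjamini and Hochberg over 17523 tested genes. At an adjusted p under 0.05, 0.188% of tested genes were called higher and 0.143% lower, and 1 of the 10 members was called higher. The members' median log2 fold change was 0.44, against -0.07 for all tested genes, of which 41% lay above 0. An unadjusted limma p under 0.05 in the higher direction was seen for 7.39% of tested genes and for 5 of the 10 members. These were Lyve1, Pdpn, Flt4, Vegfc and Kdr, 4 of the 5 lymphatic and 1 of the 5 blood vessel members. This count rested on single libraries: it was 1 without knockout replicate 4, 2 without knockout replicate 2 or 3 (1 lymphatic and 1 blood vessel member each), 3 without ApcMin/+ replicate 1 and 7 without ApcMin/+ replicate 2. In the libraries with low Xist, 4 lymphatic and 4 blood vessel members were past it. There, however, 4.07% of all tested genes were called higher at an adjusted limma p under 0.05, against 0.188% over all 8 libraries. The share of all genes past the unadjusted p was not computed for other library subsets or models. Counts of members there cannot be set against 7.39%. Every knockout library lay above every ApcMin/+ library for Lyve1 and Kdr, and for 5.5% of all tested genes.

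**Figure D1:**
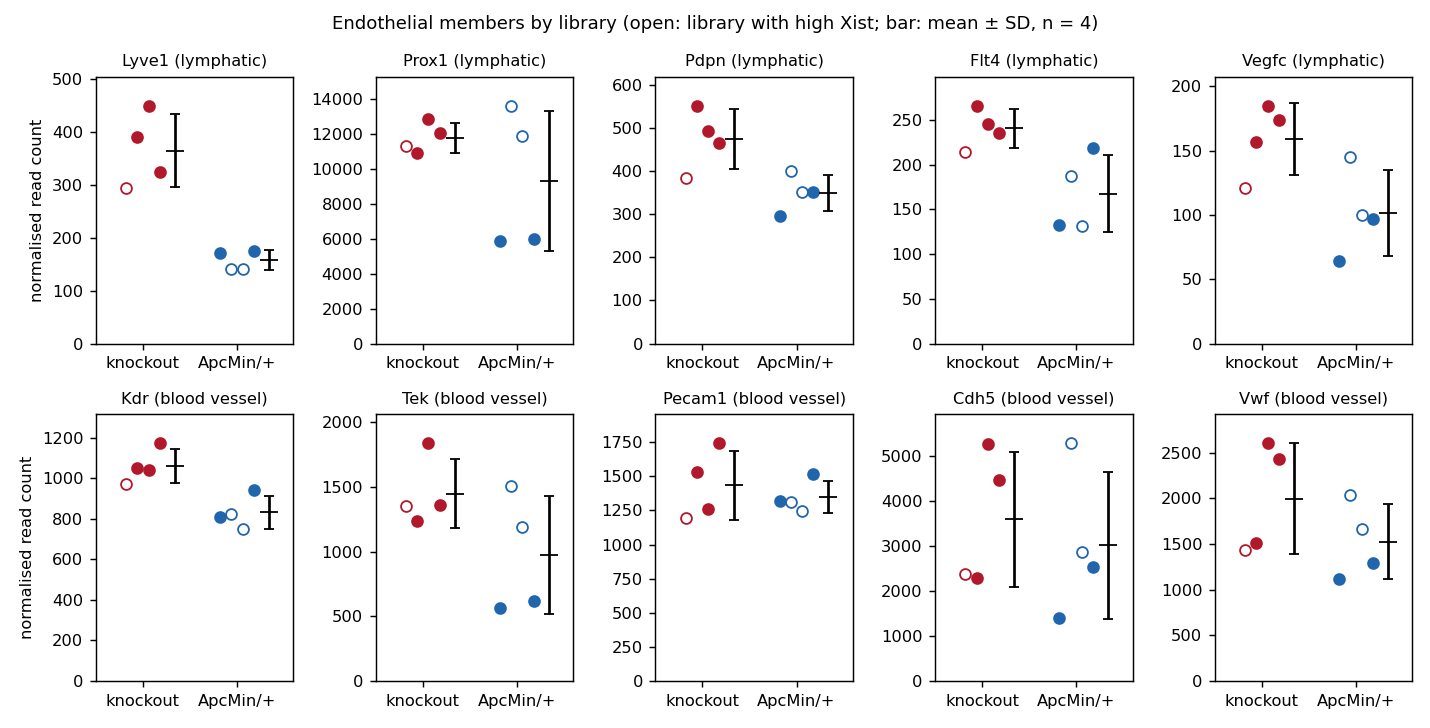
Normalised read count (vertical axes, from 0) of each member in 4 knockout and 4 ApcMin/+ libraries. Each point is a library, open where Xist was above 1000, and the bar beside each group is the mean ± SD (n = 4). Lyve1 and Kdr show no overlap between genotypes, while Prox1 and Tek show ApcMin/+ replicates 1 and 4 far below all other libraries.

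Lyve1 (chromosome 7, 110850607 to 110863239, GRCm38, minus strand), which encodes the hyaluronan receptor of lymphatic endothelium, rose in the knockout adenomas. Its normalised read count was 294, 390, 450 and 325 in the knockout libraries, against 172, 141, 141 and 176 in ApcMin/+ replicates 1 to 4. Every knockout library lay above every ApcMin/+ library. The means were 364.8 ± 69.5 in knockout and 157.5 ± 19.1 in ApcMin/+ adenomas (SD, n = 4 each), a log2 fold change of 1.19 (SE 0.19, 95% interval 0.77 to 1.62, limma adjusted p = 0.0497). By p it was the last of 58 genes called. Its adjusted p was above 0.05 without knockout replicate 2 (0.131), 3 (0.168) or 4 (0.15), the unnumbered knockout library (0.0904) or ApcMin/+ replicate 3 (0.0532). In the shared sequencing order the fold change was 1.20 (limma adjusted p = 0.177). Over all alternatives the adjusted p ranged from 0.0151 to 0.665, while the fold change stayed between 1.09 and 1.29.

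Macrophages are another site of Lyve1 expression. Of 11 tested genes on their list, 0 passed in limma in either direction (1 at an unadjusted p under 0.05), 8 lay above 0 and the median log2 fold change was 0.07. The folate receptor gene Folr2 and Cd5l, markers of resident macrophages, were at 4 or below in every library, and the phosphatidylserine receptor gene Timd4 was between 10 and 16. Other genes of the list were abundant in every library. C1qa was between 927 and 1490, C1qb between 857 and 1446 and Csf1r between 986 and 1435. Their log2 fold changes were -0.09, -0.02 and 0.05. The mannose receptor gene Mrc1, which endothelial cells also express, was 340, 426, 433 and 543 in the knockout libraries, against 227, 289, 221 and 338 in the ApcMin/+ libraries (log2 fold change 0.70, limma adjusted p = 0.151). Other macrophage genes with small p had positive fold changes too. The haemoglobin scavenger receptor gene Cd163 was 10, 14, 31 and 64 in the knockout libraries, against 2, 19, 10 and 5 in the ApcMin/+ libraries (log2 fold change 1.61, 95% interval -0.09 to 3.31). F13a1, which encodes the A subunit of coagulation factor XIII, was 547, 1069, 284 and 1329 in the knockout libraries, against 410, 298, 304 and 571 in the ApcMin/+ libraries (log2 fold change 0.84, 95% interval -0.23 to 1.92). Both genes overlapped between genotypes. The summed level of the list was between 5996 and 8458 in knockout and between 5587 and 7389 in ApcMin/+ libraries. Its part in the Lyve1 result was not tested.

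The remaining lymphatic members had intervals close to or across 0. Flt4 (chromosome 11, 49609263 to 49652739), the receptor for VEGF-C, was 214, 266, 246 and 236 in the knockout libraries, against 133, 187, 131 and 219 in the ApcMin/+ libraries. Only ApcMin/+ replicate 4 reached the knockout range. The log2 fold change was 0.55 (95% interval 0.06 to 1.04, limma adjusted p = 0.225). Vegfc (chromosome 8, 54077606 to 54187096), its ligand, was 121, 157, 185 and 174 in the knockout libraries, against 64, 145, 100 and 97 in the ApcMin/+ libraries. Here ApcMin/+ replicate 2 lay within the knockout range, and the log2 fold change was 0.68 (0.05 to 1.32, limma adjusted p = 0.24).

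Pdpn, which encodes podoplanin, lies at 143267431 to 143299564 on chromosome 4, the chromosome of Sfn, 9.67 Mb from it. It was 384, 552, 493 and 466 in the knockout libraries, against 296, 400, 351 and 352 in the ApcMin/+ libraries. The unnumbered knockout library lay below ApcMin/+ replicate 2 and the other knockout libraries lay above all ApcMin/+ libraries. The log2 fold change was 0.43 (95% interval 0.06 to 0.80, limma adjusted p = 0.216). Fibroblasts also express Pdpn, and 11 of 11 tested fibroblast genes lay above 0, with a median log2 fold change of 0.59, and 0 passed in limma in either direction (6 at an unadjusted p under 0.05). Summed fibroblast genes were between 40141 and 81635 in knockout and between 28103 and 39008 in ApcMin/+ libraries, without overlap between genotypes. Most of each sum was Col1a1, Col1a2 and Col3a1, so the sum mainly follows these collagen genes. They were also the only 3 of the 11 genes without overlap, which 5.5% of all tested genes showed in the same direction. Col1a1, a chain of collagen I, averaged 22976 ± 7413 in knockout and 11539 ± 2625 in ApcMin/+ adenomas (SD, n = 4 each), or 0.96 on the log2 scale (limma adjusted p = 0.138). The part of fibroblasts in the Pdpn values was not tested.

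Prox1, the transcription factor of lymphatic identity, was the most abundant member, and its levels in ApcMin/+ adenomas fell into a low and a high pair. It was 11291, 10909, 12853 and 12038 in the knockout libraries, against 5871, 13613, 11863 and 5956 in the ApcMin/+ libraries. ApcMin/+ replicates 2 and 3 lay at the level of the knockout libraries and replicates 1 and 4 well below it. The means were 11773 ± 859 in knockout and 9326 ± 4005 in ApcMin/+ adenomas (SD, n = 4 each), a log2 fold change of 0.44 (95% interval -0.21 to 1.09, limma adjusted p = 0.433). Enteroendocrine markers, from a cell type that also uses Prox1, summed to between 1130 and 1639 in knockout and between 1338 and 2839 in ApcMin/+ libraries. Of the 8 tested, 3 lay above 0 and 5 below, and 0 passed in limma, also at an unadjusted p of 0.05. Within ApcMin/+ these sums ran the other way from Prox1, with 2839 and 2649 in replicates 1 and 4 and 1338 and 1581 in replicates 2 and 3. Most of each sum was Chga and Chgb, so the sum mainly follows these genes. Of the other genes on the list, some ran as the sums did and some did not. Insm1 ran with Prox1, at 42 and 54 in replicates 1 and 4 and 71 and 58 in replicates 2 and 3. The part of enteroendocrine cells in the Prox1 values was not tested. The antisense gene Prox1os overlaps Prox1 and had 21 to 51 normalised reads. Libraries were stranded, but no source used here says whether counting used strand.

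Tek, which encodes the angiopoietin receptor TIE2, followed Prox1 from library to library. It was 1350, 1241, 1841 and 1359 in the knockout libraries, against 568, 1509, 1194 and 622 in the ApcMin/+ libraries. ApcMin/+ replicates 1 and 4 were again low and replicates 2 and 3 lay at or near the knockout range. The log2 fold change of Tek was 0.68 (SE 0.32, 95% interval -0.05 to 1.41, limma adjusted p = 0.29). Of deviations from the genotype means over 8 libraries, those of Prox1 and Tek had a Pearson r of 0.974, given as a description. These libraries share a normalisation that removed 1 of 6 directions of such deviations. Tek stood at rank 65 of 14837 genes by this measure. Without predicted genes, 13573 remained, and the closest of these to Prox1 were Dmxl2, Frmd4a and Rcn1 (r 0.999, 0.999 and 0.997).

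The low and high ApcMin/+ pairs also differed in other values. ApcMin/+ replicates 1 and 4 had low Xist, Ddx3y at 1534 and 1435, Sfn at 14607 and 15968 and summed epithelial markers of 806294 and 868039. Replicates 2 and 3 had high Xist, Ddx3y at 0 and 2, Sfn at 6585 and 6989 and epithelial sums of 464302 and 476667. In the 5 libraries with low Xist, 3 knockout and ApcMin/+ replicates 1 and 4, 5 of the 10 members were called higher. They were Lyve1, Prox1, Pdpn, Vegfc and Tek, with log2 fold changes of 1.14, 1.01, 0.64, 1.11 and 1.29. In that comparison 4.07% of all tested genes were called higher. ApcMin/+ replicates 1 and 4 lay on opposite sides of the direction that the normalisation removed (weights -0.471 and 0.39). The spread between them may therefore be understated and the calls too many. With high Xist as a covariate over all 8 libraries, 0 of the 10 members were called (6 at an unadjusted limma p under 0.05), and the part of these differences in the members' values was not tested.

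The stretches before the starts of Prox1, Tek and Pdpn are shown because Prox1 and Tek had like levels from library to library and because all of them hold the letters ACAAAG, or CTTTGT on the other strand. These letters are a core shared by motifs of SOX and TCF/LEF factors. Each is the 250 bases before a start in RefSeq on GRCm38.p6, 5′ to 3′ along the gene, with the match in capitals. The Prox1 stretch precedes a start that lies inside the annotated gene.
Prox1, chr1:190169516-190169765, minus strand: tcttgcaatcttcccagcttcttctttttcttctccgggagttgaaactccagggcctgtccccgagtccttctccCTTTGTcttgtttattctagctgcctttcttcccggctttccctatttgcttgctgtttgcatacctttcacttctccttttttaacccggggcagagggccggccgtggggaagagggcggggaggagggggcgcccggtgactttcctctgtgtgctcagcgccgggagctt
Tek, chr4:94739039-94739288, plus strand: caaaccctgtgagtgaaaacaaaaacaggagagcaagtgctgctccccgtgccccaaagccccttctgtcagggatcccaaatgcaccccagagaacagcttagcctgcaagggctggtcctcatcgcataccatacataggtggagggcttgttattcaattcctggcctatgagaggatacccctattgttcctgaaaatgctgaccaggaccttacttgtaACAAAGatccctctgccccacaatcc
Pdpn, chr4:143299565-143299814, minus strand: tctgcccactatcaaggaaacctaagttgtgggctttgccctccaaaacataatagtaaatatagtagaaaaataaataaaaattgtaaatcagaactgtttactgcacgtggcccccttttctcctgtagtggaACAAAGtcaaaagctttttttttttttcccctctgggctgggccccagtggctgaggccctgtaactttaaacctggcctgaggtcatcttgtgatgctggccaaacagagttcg

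RefSeq windows matched 6 of the 10 members, with a further window for Prox1 that lacks the letters, as do those of Flt4, Vegfc and Kdr. The letters stand on either strand in 16.5% of 32851 such windows. Letters of other motif types were searched on both strands too. AGGAAG (ETS type, in 29.5% of all windows), GATAA (GATA type, 22.6%) and CTTTGA (TCF/LEF type, 13.8%) were in none of the members' windows. A match describes these letters and not a bound factor.

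Among blood vessel members, Kdr, the main receptor for VEGF-A, was the one whose interval stayed above 0. It was 973, 1050, 1038 and 1173 in the knockout libraries, against 806, 824, 751 and 941 in the ApcMin/+ libraries. The lowest knockout library, at 973, lay just above the highest ApcMin/+ library, at 941. The means were 1059 ± 83.5 in knockout and 830.5 ± 79.9 in ApcMin/+ adenomas (SD, n = 4 each), or 0.35 on the log2 scale (95% interval 0.09 to 0.62, limma adjusted p = 0.176). Pecam1, a junction protein of all endothelium, was 1195, 1532, 1262 and 1744 in the knockout libraries, against 1318, 1310, 1248 and 1519 in the ApcMin/+ libraries. Its values overlapped between genotypes, and its log2 fold change of 0.07 had a 95% interval of -0.25 to 0.40 (limma adjusted p = 0.81).

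Cdh5, which encodes VE-cadherin, had the largest SE of all members. Its normalised read count was 2374, 2274, 5252 and 4459 in the knockout libraries, against 1402, 5281, 2857 and 2519 in the ApcMin/+ libraries, so the highest and the lowest library were both ApcMin/+. The log2 fold change was 0.31 (SE 0.43, 95% interval -0.66 to 1.28, limma adjusted p = 0.719). Vwf, the platelet-binding protein stored in endothelium, was 1439, 1515, 2607 and 2429 in the knockout libraries, against 1112, 2036, 1662 and 1287 in the ApcMin/+ libraries. Knockout replicates 3 and 4 were high for both genes, and the log2 fold change of Vwf was 0.38 (95% interval -0.22 to 0.97, limma adjusted p = 0.455). Platelet genes, another source of Vwf, were divided, with 4 of 6 tested above 0, 0 passing in limma and 2 in each direction at an unadjusted p under 0.05. The integrin gene Itga2b had a log2 fold change of -1.04 and the chemokine gene Ppbp of 1.28 (limma adjusted p 0.125 and 0.138). Summed platelet genes were between 1643 and 2027 in knockout and between 1145 and 1680 in ApcMin/+ libraries. Most of each sum was Gp1bb, at 1385 to 1659 in knockout and 808 to 1292 in ApcMin/+ libraries. Gp1ba was between 17 and 53 and Gp9 between 9 and 19 over all libraries. The sum therefore mainly follows Gp1bb and is a poor measure of platelets. Of 6 tested platelet genes, Itga2b and Gp1ba showed no overlap with the knockout libraries lower, as did 10.6% of all tested genes, and Ppbp and Gp1bb showed none with the knockout libraries higher, as did 5.5%.

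Within genotypes the members fell into patterns that cut across the lymphatic and blood vessel labels. By deviations from the genotype means, Cdh5 went with Vwf (Pearson r 0.954 over 8 libraries) and with Vegfc (0.925). Vegfc also went with Vwf (0.849) and with Pdpn (0.814). Prox1 stood at 0.738 with Cdh5 and 0.732 with Vwf, besides 0.974 with Tek. Pecam1 stood at 0.046 with Cdh5, 0.066 with Vwf and -0.374 with Tek. Kdr went with Pecam1 (0.856) and with Flt4 (0.712). Lyve1 stood apart, at -0.461 with Prox1, 0.126 with Pecam1 and 0.343 with Flt4, its highest value among members. The genes nearest to Lyve1 by this measure were Pigf, Ighv2-5 and Gdpd1 (0.951, 0.942 and 0.921), and those nearest to Pecam1 were Rtf1, Sqstm1 and Scn8a (0.998, 0.992 and 0.989), of 13573 compared. All these values are descriptions over libraries that share a normalisation.

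**Figure D2:**
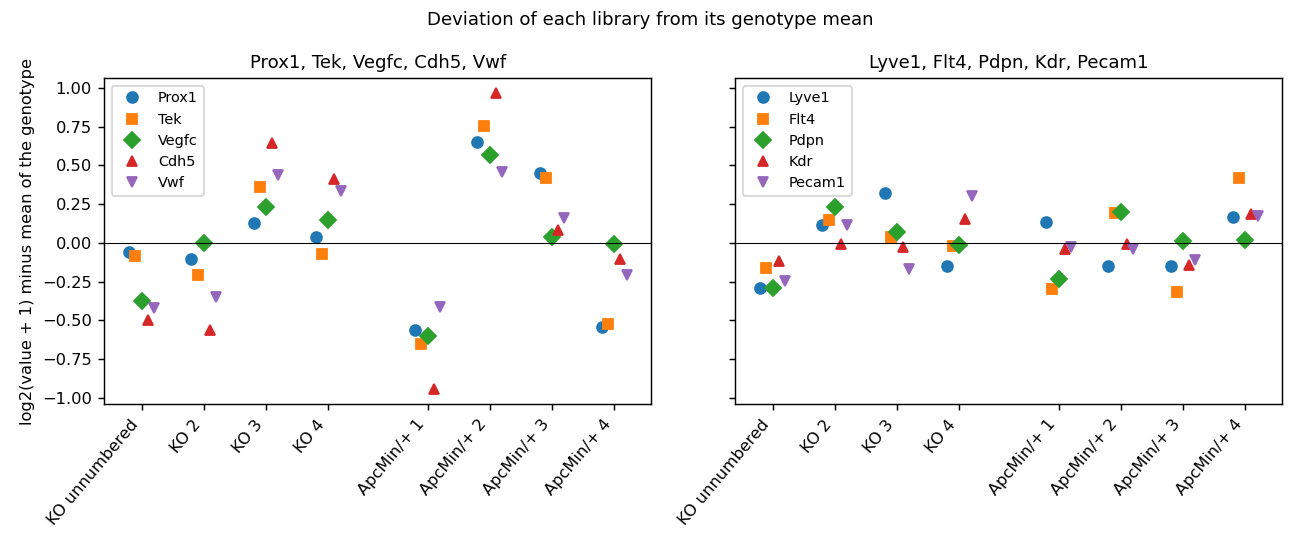
Deviation of log2(value + 1) from the mean of the genotype (vertical axis) for 4 knockout (KO) and 4 ApcMin/+ libraries (horizontal axis), with a marker for each member. The grouping into panels was made after the values were seen. In the left panel ApcMin/+ replicate 2 is high and replicate 1 low for all 5 genes. In the right panel ApcMin/+ replicate 4 is highest for Lyve1, Flt4, Kdr and Pecam1, and replicate 2 for Pdpn.

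Per kilobase of annotated exon, Prox1 had the highest and Flt4 the lowest mean normalised read count of the members in both genotypes, and the members are given by their knockout means. Prox1 stood at 1403 per kilobase in knockout and 1112 in ApcMin/+ adenomas, and Cdh5 at 854 in knockout and 717 in ApcMin/+ adenomas. The next pairs of values are for the same genotypes. Tek (307 and 207), Pdpn (261 and 193) and Pecam1 (230.1 and 217) came next. Lyve1 (125 and 54.0), Vwf (124 and 94.9) and Kdr (117 and 92.0) followed, and then Vegfc (65.0 and 41.4) and Flt4 (29.2 and 20.3). In ApcMin/+ adenomas Pecam1 had a higher mean than Tek and Pdpn, and Vwf and Kdr had higher means than Lyve1. Over all 8 libraries the ranges of neighbours in the knockout order overlapped, except that Pecam1 (191.9 to 280.03) lay above Lyve1 (48.3 to 154) and Kdr (83.2 to 129.9) above Vegfc (26.1 to 75.5). Mean levels per kilobase of Lyve1 and Kdr lay close together in the knockout adenomas and apart in the ApcMin/+ adenomas.

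Set against Pecam1 within each library, Lyve1 stayed higher in the knockout adenomas. Its ratio to Pecam1 was 0.246, 0.255, 0.357 and 0.186 in the knockout libraries, against 0.131, 0.108, 0.113 and 0.116 in the ApcMin/+ libraries. The ratio of Kdr to Pecam1 did not overlap between genotypes either, at 0.673 to 0.823 in knockout and 0.602 to 0.629 in ApcMin/+ libraries. Lyve1 and Kdr showed no overlap before division either, so the ratios are not separate support. The share of all genes whose ratio to Pecam1 does not overlap was not computed. Ratios of the other members to Pecam1 overlapped. The mean log2 value of the 5 lymphatic members minus that of the 5 blood vessel members was -1.46, -1.22, -1.60 and -1.73 in the knockout libraries, against -1.70, -1.94, -1.88 and -1.70 in the ApcMin/+ libraries. The genotypes overlapped through knockout replicate 4, and the means were -1.50 ± 0.21 in knockout and -1.80 ± 0.12 in ApcMin/+ adenomas (SD, n = 4 each), a difference of 0.30 that is given without a test.

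Of the other lymphatic endothelial genes on the list, Mmrn1 rose and the remaining 13 of 14 tested did not pass. Mmrn1 encodes multimerin, a secreted glycoprotein of lymphatic endothelium that is also stored in platelets in humans. Its normalised read count was 260, 257, 334 and 205 in the knockout libraries, against 80, 86, 76 and 89 in the ApcMin/+ libraries. Each knockout library held more than any ApcMin/+ library, with means of 264.0 ± 53.1 in knockout and 82.8 ± 5.85 in ApcMin/+ adenomas (SD, n = 4 each). The log2 fold change was 1.64 (SE 0.20, 95% interval 1.19 to 2.09, limma adjusted p = 0.0175), above that of Lyve1. In the shared sequencing order it was 1.64 (limma adjusted p = 0.0885). The adjusted p exceeded 0.05 without knockout replicate 2 (0.0648) or 3 (0.0756) or the unnumbered knockout library (0.0661), and ranged from 0.00399 to 0.546 over all alternatives. The part of platelets in the Mmrn1 result was not tested.

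Reln, which encodes the secreted protein reelin of lymphatic endothelium, was 185, 147, 214 and 153 in the knockout libraries, against 112, 101, 87 and 132 in the ApcMin/+ libraries. It too showed no overlap, with a log2 fold change of 0.69 (95% interval 0.20 to 1.18, limma adjusted p = 0.161). Ccl21a, the chemokine that draws dendritic cells into lymphatics, was 220, 682, 275 and 153 in knockout, against 170, 126, 146 and 159 in ApcMin/+ libraries. Knockout replicate 2 stood far above the others, the log2 fold change was 0.91 (limma adjusted p = 0.276), and near-identical copies of this gene make its own value uncertain. Over the 14 tested genes, 11 lay above 0 and the median log2 fold change was 0.28, against -0.07 for all genes. Foxc2, Itga9, Nr2f2 and Sox18, transcription factors or receptors of lymphatic vessels, had log2 fold changes between -0.10 and 0.37.

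Genes that deliver the VEGF-C signal did not pass the test. Ccbe1, a cofactor that brings VEGF-C to its protease, was 138, 127, 270 and 254 in the knockout libraries, against 85, 95, 81 and 100 in the ApcMin/+ libraries. No library overlapped, and the log2 fold change was 1.04 (SE 0.29, 95% interval 0.38 to 1.71, limma adjusted p = 0.138). Adamts3, that protease, averaged 25.0 ± 4.97 in knockout and 13.3 ± 5.56 in ApcMin/+ adenomas (SD, n = 4 each), or 0.92 on the log2 scale (adjusted p = 0.239 in limma). The co-receptor gene Nrp2 had a log2 fold change of 0.04 (95% interval -0.26 to 0.35). Figf, the older symbol of the gene of VEGF-D, had one of -0.80 (-1.84 to 0.24).

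Blood vessel ligands and their receptors did not pass either. Vegfa, the main angiogenic ligand, averaged 4226 ± 700.0 in knockout and 3627 ± 343 in ApcMin/+ adenomas (SD, n = 4 each), or 0.21 on the log2 scale (limma adjusted p = 0.44). Vegfb and the placental growth factor gene Pgf had log2 fold changes of -0.23 and -0.14, and the VEGF receptor gene Flt1 and the co-receptor gene Nrp1 of 0.44 and 0.19. Angpt1 and Angpt2, the ligands of TIE2, had values of 0.33 and 0.11, the orphan receptor gene Tie1 of 0.18 and Angptl4 of -0.12. Of the 13 tested genes on this list, 0 passed in limma in either direction (2 at an unadjusted p under 0.05), 9 lay above 0 and the median log2 fold change was 0.18. The fold change of Pgf changed sign in 4 of 22 alternatives, that of Angpt2 in 3, those of Nrp2 and Angpt1 in 2 each and that of Angptl4 in 1.

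**Figure D3:**
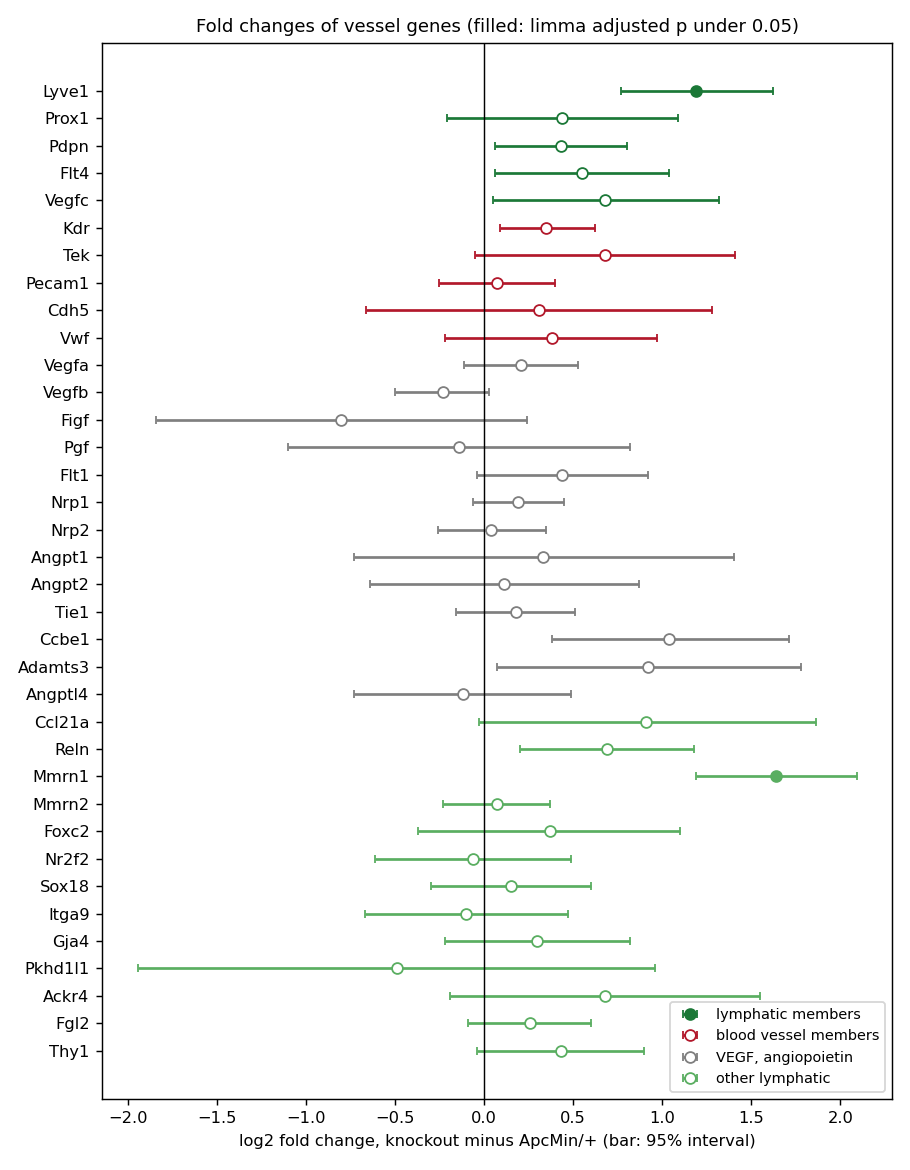
Log2 fold change with its 95% interval (horizontal axis, knockout minus ApcMin/+) of the members, of VEGF and angiopoietin genes and of other lymphatic endothelial genes (one gene per row). Filled points passed limma's adjusted p of 0.05. Lyve1 at 1.19 and Mmrn1 at 1.64 are filled, and the interval of Pecam1, at 0.07, spans 0.

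Other blood endothelial genes gave 0 limma calls among 28 tested (6 higher and 1 lower at an unadjusted p under 0.05), with 21 above 0 and a median log2 fold change of 0.22. Of the 28, 4 showed no overlap with the knockout libraries higher, as did 5.5% of all tested genes. The junction gene Esam was the 1 without overlap and lower (log2 fold change -0.26), as were 10.6% of all tested genes. Calcrl, the receptor for adrenomedullin, was 314, 340, 390 and 325 in the knockout libraries, against 216, 170, 179 and 206 in the ApcMin/+ libraries. The libraries did not overlap (log2 fold change 0.83, 95% interval 0.47 to 1.18, limma adjusted p = 0.086). S1pr1, the sphingosine 1-phosphate receptor of endothelium and lymphocytes, averaged 467.0 ± 97.3 in knockout and 257 ± 19.3 in ApcMin/+ adenomas (SD, n = 4 each), or 0.84 on the log2 scale (limma adjusted p = 0.107). The endothelial phosphatase gene Ptprb had a log2 fold change of 0.50 and no overlap (limma adjusted p = 0.187). Sele, the inflammation-induced adhesion molecule E-selectin, was 52, 34, 10 and 43 in knockout, against 7, 4, 1 and 29 in ApcMin/+ libraries (2.14, limma adjusted p = 0.232).

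Other cells of the vessel wall and of blood gave values beside which the members can be read. Pericyte genes, from cells that wrap capillaries, lay above 0 for 7 of 7 tested, with a median log2 fold change of 0.41 and 0 passing in limma (2 at an unadjusted p under 0.05). Kcnj8, a potassium channel gene of pericytes, averaged 709 ± 185 in knockout and 422.5 ± 56.0 in ApcMin/+ adenomas (SD, n = 4 each), or 0.72 on the log2 scale (limma adjusted p = 0.137). Summed pericyte genes were between 6211 and 9060 in knockout and between 5448 and 5868 in ApcMin/+ libraries. Smooth muscle genes lay below 0 for 7 of 7 tested, with a median of -0.22 and 0 passing, also at an unadjusted limma p of 0.05. Red cell genes lay above 0 for 6 of 6 tested, with a median of 0.60 and 0 passing by either p, and summed to between 9577 and 27351 in knockout and between 8725 and 18101 in ApcMin/+ libraries. The part of these cells in the members' values was not tested.

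**Figure D4:**
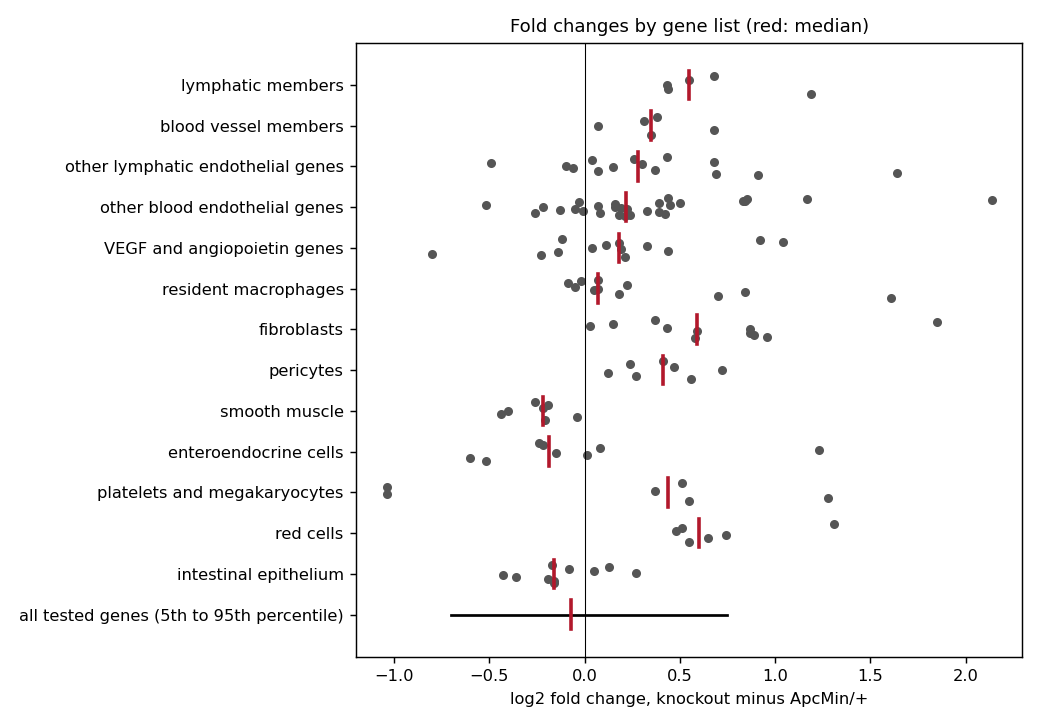
Log2 fold change (horizontal axis, knockout minus ApcMin/+) of each tested gene by list (rows), with the median of each list in red. The black bar spans the 5th to the 95th percentile of all tested genes, -0.70 to 0.75. Lymphatic members have a median of 0.55, blood vessel members of 0.35 and fibroblast genes of 0.59.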

How the data were processed

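Total RNA of adenomas from 4 knockout and 4 ApcMin/+ mice was sequenced from stranded Illumina libraries, per the labels' protocols. The 1 deposited sheet is titled as RUVs normalised. RUVs subtracts unwanted factors estimated among replicates, so its whole-number values were handled as a score deposited by the authors and not as raw counts. The submitters' processing notes name the build mm10. Aligner, counting method and RUVs settings were not given in the sources used here. A knockout column whose mouse number belongs to an ApcMin/+ mouse in the labels was assigned by its genotype alone. In all, 27 rows whose names had become dates were left out.

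Subtraction had removed 1 of 6 directions of within-genotype deviations (singular value 0.0954 against 53.8 for the largest, on 12052 genes). It sets ApcMin/+ replicates 1 and 2 against 3 and 4, as do the column prefixes read as sequencing orders. The direction entered the model as a covariate (a direction under 0.1 of the largest), leaving 5 residual degrees of freedom. A gene was tested where 4 or more libraries had a value of 10 or more, with limma 3.58.1 in R 4.3.3 (eBayes with trend) on log2(value + 1), which understates changes of low genes. Benjamini and Hochberg adjustment covered all tested genes, with a threshold of 0.05. The procedure was also tested on simulated data. Depth per library is unknown, so no counting interval is given.

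Positions and exon lengths came from GENCODE M21 on GRCm38, and promoter sequences from RefSeq. Genes named are the members, the tested VEGF and angiopoietin genes, up to 4 genes of smallest p from each other list, Sfn, and the 3 genes most like Lyve1, Prox1 and Pecam1 by Pearson r. Xist, Ddx3y, Folr2, Cd5l, Timd4, C1qa, C1qb, Csf1r, Epcam, Krt8, Prox1os, Insm1, Esam, Foxc2, Itga9, Nr2f2 and Sox18 were named after their values were seen. Members and lists were chosen with earlier results of these data known. Alternatives were other pseudocounts, filters, scalings, covariates, weights, library subsets and thresholds. Nrp2, Flt1, Tie1 and Thy1 stand on 2 lists. Replicates are separate mice.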

Additional observations from a re-analysis of the deposited data

Results flagged for a closer look

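Among 90 groups of 4 libraries checked (45 named genes in each genotype), 2 held a library far from the other libraries, where chance flags about 1 in 20. Angpt1 was 39 in knockout replicate 4 and 24 to 26 in the other knockout libraries. Gp1ba was 23 in the unnumbered knockout library and 17 in each of the other knockout libraries.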

How the results depend on the processing

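The number of genes called, 58 over all 8 libraries, was 426 when the removed direction was not counted, 18 with sequencing order as a covariate, 16 in the shared sequencing order, 13 with array weights, 2194 in the 5 libraries with low Xist and 170 at a threshold of 0.1. It ranged from 21 (without knockout replicate 3) to 346 (without ApcMin/+ replicate 2) when 1 library was left out. Median-ratio scaling split the calls into 38 higher and 18 lower and quantile normalisation into 40 and 20, against 33 and 25, and the median of all genes was -0.01 and -0.03 under these scalings. The number of members called, 1 over all 8 libraries, was 0 with a pseudocount of 5, without a filter, with a filter of 50, with quantile normalisation, with sequencing order or high Xist as a covariate, in the shared sequencing order and with array weights, where limma's unadjusted p was under 0.05 for 1 to 6 members. It was 5 in the libraries with low Xist, and ranged from 0 to 1 when 1 library was left out. The log2 difference of Sfn was -12.76 in the shared order (exact permutation p = 0.0667, the smallest that 6 libraries allow).

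Of 982 values of 45 named genes under 22 alternatives, 15 changed sign, none of them a called gene. Pecam1 was -0.04 and Angpt2 -0.04 with array weights. In the libraries with low Xist, Pgf was 0.70, Nrp2 -0.07 and Angpt1 -0.13. Leaving out 1 library at a time gave -0.02 (without knockout replicate 4) to 0.16 for Pecam1, -0.00 (without ApcMin/+ replicate 1) to 0.63 for Cdh5, -0.38 to 0.11 for Pgf, -0.02 to 0.13 for Nrp2, -0.02 to 0.71 for Angpt1, -0.13 to 0.35 for Angpt2 and -0.28 to 0.09 for Angptl4. Lyve1 lost its call in 13 alternatives and Mmrn1 in 6, with the direction kept. The difference between lymphatic and blood vessel members kept its sign in every alternative run. No paired analysis was possible because the labels share no mouse number between genotypes, and the 1 number that both a knockout and an ApcMin/+ column carry makes fewer than 2 pairs. Unknown depth limits genes of low value.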
